A study of Mus musculus with 8 samples.

Results

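Peroxiredoxins are thiol peroxidases that reduce hydrogen peroxide with a reactive cysteine, and most of them are returned to the reduced state by thioredoxin, which thioredoxin reductase 1 (Txnrd1) recharges in the cytosol. When peroxide is abundant the cysteine can be overoxidized to a sulfinic acid, and sulfiredoxin, the product of Srxn1, restores it at the cost of ATP. Sestrins are stress-inducible proteins that restrain mTORC1 signalling and were first linked to peroxiredoxin repair. The genes described here were Prdx1 to Prdx6, Srxn1 and Sesn3, 8 genes grouped by their function, with earlier results of these data known. Of these, 6 genes were read by 18 of the 45037 probe sets on the array that were not controls, and Prdx5 and Prdx6 were not analysed here because the annotation used lists no probe set for either.

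The livers came from young male mice that had been singly housed for 10 days in a cycle of 14 h light and 10 h dark. One group was txnrd1 cond/+ albCre0, which carries 1 conditional and 1 wild-type Txnrd1 allele and no Cre (control, animals 70, 71, 80 and 82). The other was txnrd1 cond/- albCre1, which carries 1 conditional and 1 null allele and Cre under the albumin promoter (Txnrd1-deficient, animals 69, 72, 73 and 81). That promoter is active in hepatocytes, so endothelial, Kupffer and other liver cells keep the conditional allele, and the groups also differ in Cre and in the null allele of all cells. RNA of whole liver from each animal was hybridized to 1 Affymetrix mouse 430 2.0 array. The values are linear ratios in which 1 is close to the median of a probe set over the 8 arrays, so levels of different genes cannot be set against each other.

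Srxn1 was the member that stood apart between the genotypes. Its ratio, the mean over 4 probe sets on the log2 scale, was 0.754, 0.746, 0.832 and 0.793 in control animals 70, 71, 80 and 82. It was 1.30, 1.17, 1.69 and 2.84 in Txnrd1-deficient animals 69, 72, 73 and 81. Each deficient liver lay above each control liver, and the control livers lay close together while the deficient ones spread widely. The group means were 0.781 ± 0.0398 and 1.75 ± 0.758 (SD, n = 4 each). Srxn1 was 2.10-fold higher in the deficient livers, with a 95% interval of 1.45 to 3.06 and a log2 difference of 1.07 (SE 0.24). By limma's moderated test the unadjusted p was 0.0013 and the p adjusted over 18194 genes was 0.56. Srxn1 thus met the thresholds of the study's methods (unadjusted p of at most 0.05 and 1.5-fold), without the signal minimum, and did not pass the adjusted test. Whole-liver RNA cannot tell more Srxn1 RNA per cell from more cells that express it.

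**Figure D1:**
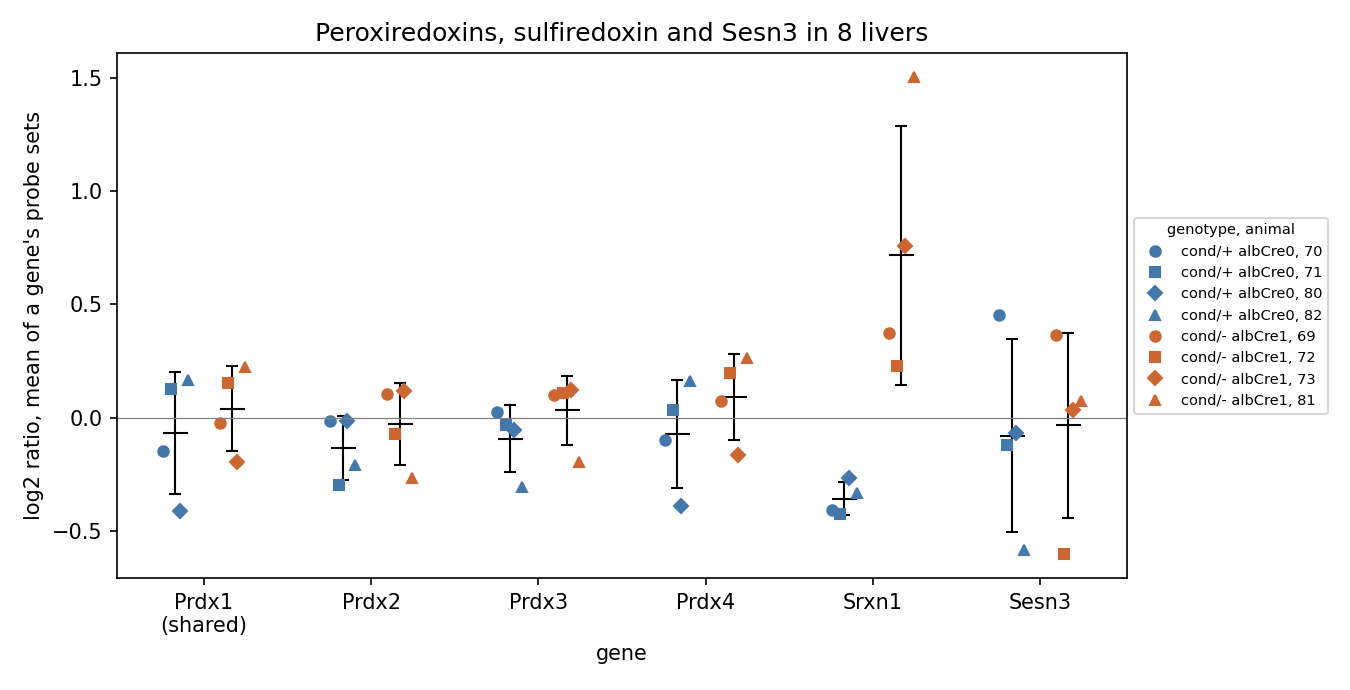
Log2 ratio of each of the 6 measured genes (vertical axis) in each liver, with a marker for each animal and the mean and SD of each genotype as bars (n = 4). Srxn1 is the gene whose genotypes do not overlap, and Prdx1 rests on probe sets shared with Gm21399.

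Among the 6 genes, 0 passed the adjusted test with a 1.5-fold difference, where 0.0824% of all genes did. When each gene was tested alone, by its own variance and with the p still adjusted over all genes, 0 of the 6 passed and 1 of 18194 genes did. Srxn1 was the 1 gene of 6 at the study's thresholds (all genes, 0.654%), at an unadjusted p of at most 0.05 (2.32%), and with deficient livers all above control livers (1.13%). The log2 difference was above 0 for 6 of 6 genes, beside 51.1% of all genes, and its median over the 6 was 0.12. At the level of probe sets, 3 of 18 met the study's thresholds, beside 0.562% of all probe sets, and all 3 read Srxn1. The adjusted test called 0 of the 18, beside 0.0266% of all probe sets. It called the same 3 Srxn1 probe sets, at limma's adjusted p of 0.0015 to 0.017, when the less variable probe sets were left out by their SD over the 8 livers, a fit that kept 10 of the 18 and called 0.262% of all probe sets in it. That SD includes the difference between the genotypes, so the filter favours probe sets that differ, and these 3 calls are not separate support.

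The 3 Srxn1 probe sets at the study's thresholds differed by similar amounts, and the fourth had groups that overlapped. Probe set 1426875_s_at read 0.700, 0.771, 0.774 and 0.549 in the control livers against 1.60, 1.23, 2.04 and 3.33 in the deficient ones, in the order of animals above. Probe set 1451680_at read 0.769, 0.728, 0.823 and 0.733 against 1.40, 1.18, 1.99 and 3.57. Probe set 1425351_at read 0.725, 0.583, 0.860 and 0.922 against 1.43, 1.09, 1.91 and 4.70. In each of the 3 the deficient animals kept 1 order, with 72 lowest, then 69, then 73, and 81 highest. The folds were 2.76 (1.81 to 4.21), 2.43 (1.54 to 3.83) and 2.54 (1.39 to 4.63), with 95% intervals in parentheses. Probe set 1419942_at read 0.828, 0.944, 0.875 and 1.07 against 0.884, 1.19, 1.06 and 1.16, and its groups overlapped. Its fold was 1.15, with an interval of 0.934 to 1.43, so the mean over 4 probe sets lies below what the other 3 read.

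**Figure D2:**
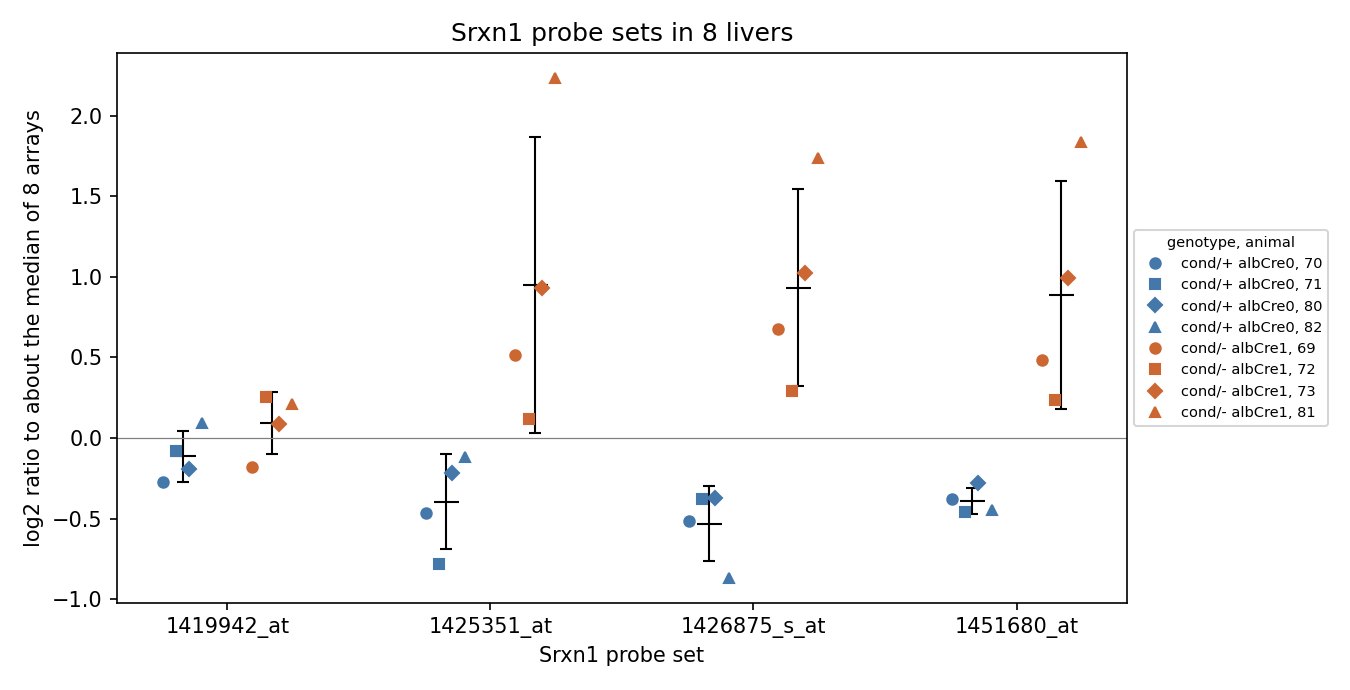
Log2 ratio of the 4 Srxn1 probe sets (vertical axis) in each of the 8 livers, with the mean and SD of each genotype as bars (n = 4). In 3 of them the deficient livers lie above all control livers, and in 1419942_at the groups overlap.

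Srxn1 also varied widely among the deficient livers. Its within-group SD of 0.41 on the log2 scale exceeded that of 92.0% of all genes. The SD was 0.57 in the deficient livers against 0.073 in the controls. Animal 81 held the highest value, and without it the log2 difference was 0.81, a 1.75-fold difference. The labelled poly-A spike-in controls, 24 probe sets that follow the labelling reaction, had array medians of 2.09 in animal 81, 1.51 in 69, 0.899 in 73 and 0.667 in 72. In the control animals they were 1.12 in 70, 0.746 in 71, 1.02 in 80 and 0.996 in 82. Animal 81 was thus highest both in these spike-in controls and in Srxn1, and 72 was the lowest deficient animal in both. Animal 73 was above 69 in Srxn1 and below it in the spike-in controls. The part of the spike-in level in the Srxn1 values was not tested.

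The genes whose ratios over the 8 livers lay nearest to those of Srxn1 were Slc48a1, Snhg11, Gclc, Bach1 and Slc35d1, with a mean absolute log2 distance of 0.13 to 0.21. Slc48a1, a haem transporter, read 0.680, 0.692, 0.711 and 0.787 in the control livers against 1.27, 1.12, 1.41 and 3.31 in the deficient ones. Gclc, the catalytic subunit of the rate-limiting enzyme of glutathione synthesis, read 0.687, 0.741, 0.692 and 0.774 against 1.26, 1.36, 1.14 and 2.59. Bach1, a haem-binding repressor of antioxidant response elements, read 0.766, 0.804, 0.771 and 0.727 against 1.30, 0.981, 1.22 and 2.11. Each of the 5 genes had its highest value in animal 81. The folds ran from 1.58 for Slc35d1, a nucleotide sugar transporter, to 2.24 for Slc48a1, and the long non-coding RNA Snhg11 stood at 2.08. None of the 5 passed the adjusted test, with limma's adjusted p between 0.47 and 1.00, while all 5 had an unadjusted p of at most 0.05. They were picked for likeness to Srxn1, so their folds describe the pattern and test nothing.

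**Figure D3:**
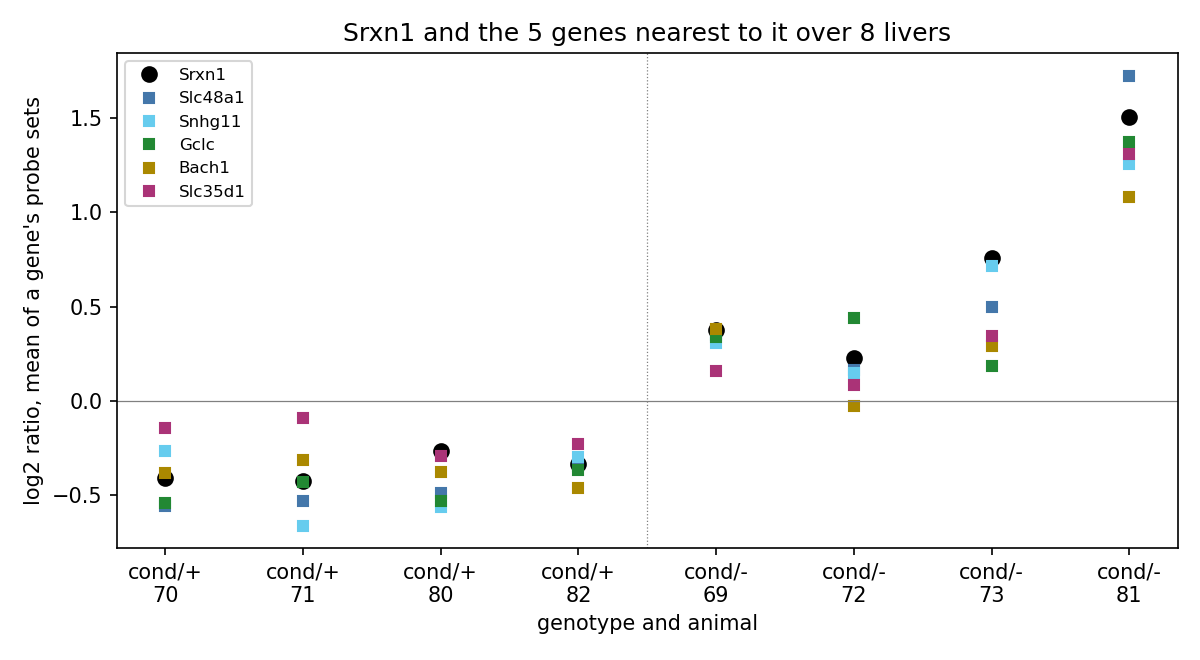
Log2 ratio (vertical axis) of Srxn1 and the 5 genes nearest to it, by genotype and animal (horizontal axis). All 6 are highest in animal 81, and in each gene the deficient livers lie above the control livers.

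Srxn1 is a known target of Nrf2, which binds antioxidant response elements, and AP-1 sites often overlap such elements. The start regions of Srxn1 and Prdx1 are shown because Prdx1 is a main substrate of sulfiredoxin and both hold letters of these motifs, beside folds of 2.10 and 1.08. Each is 300 bases, 250 before to 50 after the annotated start, in RefSeq on GRCm38.p6, plus strand, with matches to TGACNNNGC or TGAGTCA on either strand in capitals.
Srxn1, chr2:152105274-152105573: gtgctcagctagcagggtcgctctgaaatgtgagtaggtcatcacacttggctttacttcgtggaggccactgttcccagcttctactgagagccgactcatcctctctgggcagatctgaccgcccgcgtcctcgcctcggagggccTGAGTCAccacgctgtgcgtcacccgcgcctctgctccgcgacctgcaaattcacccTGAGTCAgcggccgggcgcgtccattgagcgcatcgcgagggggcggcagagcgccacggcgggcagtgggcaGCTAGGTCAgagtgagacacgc
Prdx1, chr4:116685349-116685648: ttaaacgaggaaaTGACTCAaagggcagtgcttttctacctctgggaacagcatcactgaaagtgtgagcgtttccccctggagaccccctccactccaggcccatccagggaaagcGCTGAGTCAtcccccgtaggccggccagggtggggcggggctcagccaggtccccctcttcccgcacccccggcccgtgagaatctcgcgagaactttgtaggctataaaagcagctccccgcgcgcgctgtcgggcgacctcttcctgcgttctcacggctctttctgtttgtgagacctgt
Srxn1 held 2 copies of TGAGTCA before the start and 1 TGACNNNGC match, on the reverse strand, after it. Prdx1 held 2 copies of TGAGTCA, 1 of them on the reverse strand, and 1 TGACNNNGC match that overlaps the other copy. A RefSeq window was at hand for 7 of the 8 genes, and Prdx2, Prdx3, Prdx4, Prdx5 and Sesn3 held neither motif in theirs. Of all 32851 windows of this length, 12.4% held TGACNNNGC and 5.2% held TGAGTCA. A match of letters is not by itself a binding site.

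The 4 measured peroxiredoxins differed little between the genotypes, and none met any threshold. Prdx1, the abundant cytosolic peroxidase, read 0.902, 1.09, 0.752 and 1.12 in the control livers against 0.983, 1.11, 0.874 and 1.17 in the deficient ones. Prdx2, its cytosolic relative that is also abundant in red blood cells, read 0.991, 0.815, 0.991 and 0.866 against 1.08, 0.951, 1.09 and 0.832. The groups overlapped for both genes. Prdx3, the mitochondrial peroxidase, read 1.02, 0.977, 0.964 and 0.808 against 1.07, 1.08, 1.09 and 0.873. Prdx4, which acts in the endoplasmic reticulum, read 0.935, 1.03, 0.763 and 1.12 against 1.05, 1.15, 0.891 and 1.20. These groups overlapped too.

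The folds, deficient over control, were 1.08 for Prdx1 (95% interval 0.850 to 1.37), 1.07 for Prdx2 (0.889 to 1.30), 1.09 for Prdx3 (0.909 to 1.31) and 1.12 for Prdx4 (0.895 to 1.40). Limma's adjusted p was 1.00 for each of them, and the unadjusted p ran from 0.28 to 0.50. All 4 intervals lay within 1.5-fold in either direction, so for the mean over a gene's probe sets a difference of that size lies outside them. The intervals of some single probe sets reached past 1.5-fold. These were Prdx1 1433866_x_at (0.564 to 1.97), Prdx2 1430979_a_at (0.865 to 1.65), and Prdx4 1416166_a_at (0.759 to 1.98) and 1435731_x_at (0.708 to 1.66). Those of the other peroxiredoxin probe sets lay within it. The 4 folds did not differ in order beyond their errors. The difference between Srxn1 and Prdx1 in each liver, on the log2 scale, was 0.97 larger in the deficient than in the control animals, with a 2-sided exact permutation p of 0.057 over 70 splits, where the smallest possible was 0.029. The p was 0.029 with the median of a gene's probe sets (difference 1.09) and without animal 72 (1.17), and 0.086 without 70, 71, 82, 73 or 81, so the call depends on these choices. With an animal left out, fewer than 70 splits exist.

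**Figure D4:**
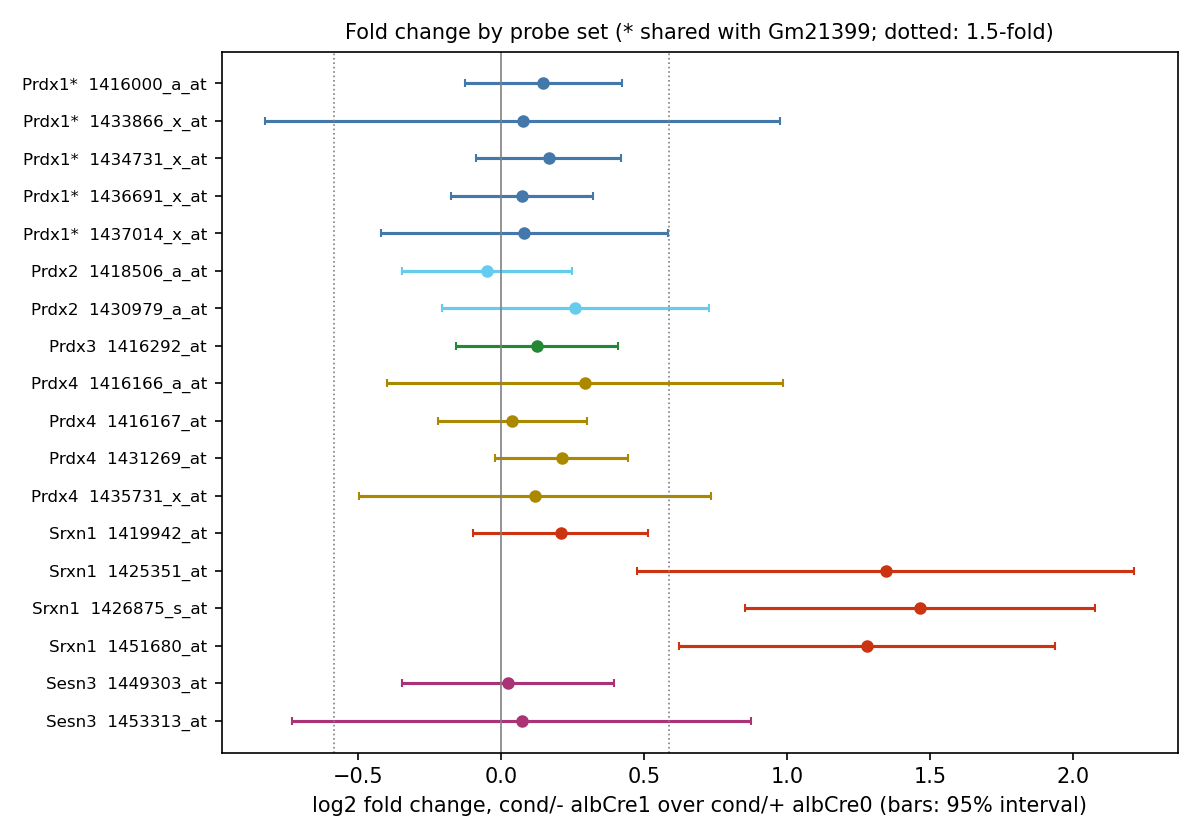
Log2 difference, Txnrd1-deficient over control, of each of the 18 probe sets with its 95% interval (horizontal axis); dotted lines mark 1.5-fold and asterisks the probe sets shared with Gm21399. The intervals of 3 Srxn1 probe sets lie above 0, and those of all other probe sets include 0.

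Probe sets of 1 peroxiredoxin did not always read alike. Prdx1 was read by 5 probe sets, all of which the annotation also assigns to the pseudogene Gm21399, so the Prdx1 values can include signal from it. Their log2 differences ran from 0.07 to 0.16. Prdx2 probe set 1430979_a_at had a log2 difference of 0.26 and 1418506_a_at of -0.05. Prdx4 probe set 1431269_at read 0.856, 0.962, 0.966 and 0.931 in the control livers and 1.15, 1.04, 1.04 and 1.08 in the deficient ones. This made it the 1 peroxiredoxin probe set whose groups did not overlap, with a fold of 1.16 (95% interval 0.985 to 1.36) and limma's unadjusted p of 0.071 (adjusted p of 1.00). With 3 of Srxn1, 4 of the 18 member probe sets had all deficient livers above all control livers, beside 0.897% of all probe sets. The other Prdx4 probe sets overlapped between the groups.

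In 2 of the 18 member probe sets the livers split by a measure of the array, chosen after seeing the data, and not by genotype. The hybridization controls bioB and bioC, 10 probe sets, had array medians above 1 in animals 70, 80, 69 and 73 and below 1 in 71, 82, 72 and 81, with 2 animals of each genotype on each side. Prdx1 probe set 1433866_x_at read 0.421 to 0.850 on the first 4 arrays and 1.15 to 1.56 on the others. Prdx4 probe set 1435731_x_at read 0.614 to 0.909 and 1.09 to 1.495. Of all probe sets, 8.91% separated fully by this side in either direction, so such a split is not particular to these genes. Within the arrays above 1, Srxn1 had a log2 difference of 0.90, and within those below 1 it had 1.24.

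**Figure D5:**
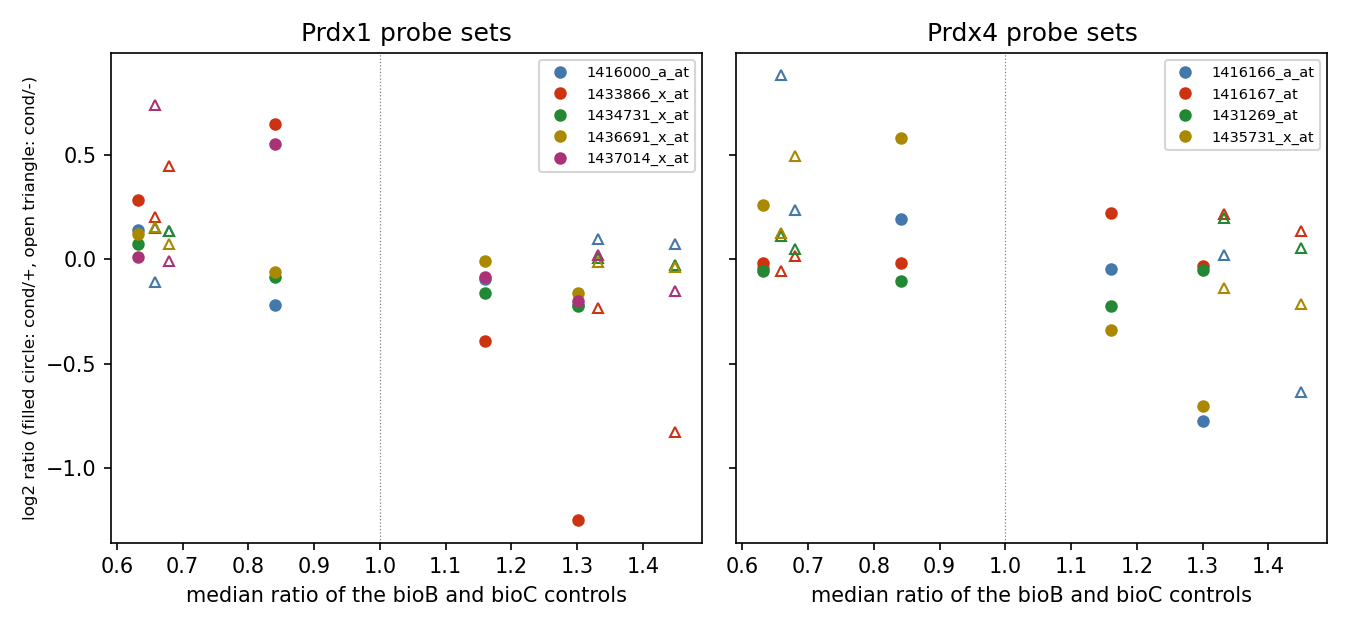
Log2 ratio of each Prdx1 and Prdx4 probe set (vertical axis) against the median ratio of 10 hybridization control probe sets on the same array (horizontal axis), with control livers as filled circles and deficient livers as open triangles. Prdx1 probe set 1433866_x_at and Prdx4 probe set 1435731_x_at are lower on all 4 arrays to the right of 1 than on the 4 to the left.

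Sesn3, a sestrin that FoxO factors induce, varied between animals without a difference by genotype. It read 1.37, 0.920, 0.954 and 0.667 in the control livers and 1.29, 0.659, 1.02 and 1.05 in the deficient ones. The groups overlapped through nearly their whole range. The fold was 1.03, with a 95% interval of 0.706 to 1.51, which just includes 1.5-fold, and limma's adjusted p was 1.00. Its within-group SD of 0.42 on the log2 scale was larger than that of 92.7% of genes. Probe set 1453313_at carried most of this, with 0.574 to 1.51 in the control livers and 0.477 to 1.35 in the deficient ones, while 1449303_at ran from 0.776 to 1.24 and from 0.909 to 1.23.

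The genes with ratios most like those of Sesn3 were Cd44, a hyaluronan receptor, Tut4, an RNA uridylyltransferase, Cnot6l, a deadenylase, Frg1, and Gins4, a subunit of the replicative helicase complex. Their mean absolute log2 distance was 0.039 to 0.072 over the 8 livers, and all 5 were highest in control animal 70, as was Sesn3. Cd44 read 1.35, 0.935, 0.986 and 0.672 in the control livers and 1.14, 0.668, 1.03 and 1.06 in the deficient ones. None had an unadjusted p of at most 0.05. The other sestrins were Sesn1, with a log2 difference of 0.15 (SE 0.14), and Sesn2, with 0.26 (SE 0.17), and neither reached that p.

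The enzymes that share the work of peroxide removal and of thiol reduction, the disrupted Txnrd1 included, were measured in 29 of 29 genes. Limma's adjusted test called 0 of them, 3 met the study's thresholds (all genes, 0.654%), and 5 had an unadjusted p of at most 0.05 (all genes, 2.32%), all higher in the deficient livers, while 24 did not. Of the 29, 24 had a log2 difference above 0, beside 51.1% of all genes, and the median of the 29 was 0.13, where that of all genes was 0.00. Gsr, glutathione reductase, read 0.761, 0.856, 0.905 and 0.712 in the control livers and 1.06, 1.06, 1.16 and 1.85 in the deficient ones, a 1.55-fold difference without overlap. Gpx4, which reduces lipid hydroperoxides, read 0.920, 0.858, 0.617 and 0.940 against 1.14, 1.07, 1.29 and 1.39, also without overlap and 1.48-fold higher. Gpx2, the gastrointestinal glutathione peroxidase, was 2.11-fold higher with overlap. Gstp1, the glutathione transferase that reactivates Prdx6, was 1.502-fold higher and Glrx, glutaredoxin, 1.33-fold. Thioredoxin itself, Txn1, had a log2 difference of 0.25 (SE 0.14), and catalase, Cat, one of 0.16 (SE 0.16). For these named genes limma's adjusted p was 1.00. The study, with its own test and signal minimum, reports Gpx2 and sulfiredoxin as induced. By RT-PCR it also reports more sulfiredoxin pre-mRNA in nuclei of deficient livers, and it describes peroxiredoxin mRNA levels as unaffected. It reports no induction of Gsr or glutaredoxin mRNAs and no rise of pi-class transferase mRNAs, the class of Gstp1.

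Of 14 listed targets of Nrf2, 12 were measured, and 2 passed the adjusted test (all genes, 0.0824%), both higher in the deficient livers. At an unadjusted p of at most 0.05 there were 7 of the 12 (all genes, 2.32%), and 5 did not reach it. The 2 that passed the adjusted test were Nqo1 and Abcc4. Nqo1, a quinone reductase, had a log2 difference of 2.58 (SE 0.24, limma's adjusted p of 0.0058). Abcc4, an efflux transporter, had one of 3.73 (SE 0.38, limma's adjusted p of 0.0095). Srxn1 at 1.07 lay beside Gclc at 1.053, Gclm at 0.67, Me1 at 0.69 and Gsr at 0.63, and above Fth1 at 0.28. The 5 that did not reach that p were Hmox1, Pgd, Osgin1, Slc7a11 and Txnrd1. Hmox1, haem oxygenase 1, was at 0.97 (SE 0.57), Pgd at 0.51, Osgin1 at 0.43 and Slc7a11 at 0.09. Txnrd1, the gene disrupted in the deficient livers, was at -0.00035, the mean of probe sets that differed in opposite directions. The mean log2 ratio of the 12 genes, Txnrd1 included, ran from -0.73 to -0.46 in the control livers. It ran from 0.13 to 1.05 in the deficient ones, with animal 81 highest, as for Srxn1.

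The 3 Txnrd1 probe sets differed in opposite directions. By limma 2 met the study's thresholds, 1421529_a_at at 2.16-fold (95% interval 1.45 to 3.22) and 1424486_a_at at 0.613-fold (0.456 to 0.823), while 1424487_x_at stood at 0.753-fold, and none passed the adjusted test. Probe set 1421529_a_at read 0.686, 0.683, 0.900 and 0.410 in the control livers and 1.19, 1.10, 1.44 and 2.00 in the deficient ones. Probe set 1424487_x_at read 1.03, 1.17, 1.33 and 1.20 against 0.755, 0.965, 0.888 and 0.954, and 1424486_a_at read 1.05, 0.993, 1.30 and 1.51 against 0.997, 0.598, 0.671 and 0.726. The sources used here do not place the probe sets relative to the deleted part, so they do not check the genotype labels. Markers of 8 liver cell types showed 0 members at an unadjusted p of at most 0.05 by limma (all genes, 2.32%), with list medians of -0.23 to -0.01. The log2 difference was above 0 in 0 of 7 endothelial, 0 of 7 stellate and 0 of 3 erythroid markers (all genes, 51.1%). It was above 0 in 2 of 7 hepatocyte, 3 of 7 Kupffer cell and macrophage, 2 of 7 neutrophil, 1 of 5 cholangiocyte and 2 of 5 lymphocyte markers. The 3 measured of 7 erythroid markers, which bear on Prdx2, had mean log2 ratios of -0.39 to 0.18 in the control livers and -0.62 to 0.13 in the deficient ones. The 7 measured of 8 hepatocyte markers had -0.02 to 0.08 and -0.13 to 0.07. As ratios, they cannot show the level of any marker, and the part of cell makeup in the values above was not tested.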

How the data were processed

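The authors deposited 1 linear ratio per probe set and array, made in GeneSpring 7.3 per their methods, with RMA named in the submitters' processing notes. Each array's median is about 1, and 99.0% of probe sets have a median within 5% of 1, so raw signal and the study's minimum of 50 units could not be applied. Of 45101 probe sets, 64 controls were left out. Probe sets were named from GEO's platform annotation (34945 with 1 symbol, 932 with several, 9160 with none). Log2 ratios of a gene's probe sets were averaged, with those shared by Prdx1 and Gm21399 kept, and 18194 genes and 45037 probe sets were fitted by limma 3.58.1 (R 4.3.3), with Benjamini-Hochberg adjustment over all of them. The scripts were tested on simulated data. With 4 arrays per group, their number limits the precision. Alternatives were the scaling, variance model, array weights, probe set summary, filter, covariates and leaving out each animal. The members, lists and tests were chosen with earlier results of these data known, and Srxn1 is among the genes that the study itself picked on these samples. Named genes were all member and Txnrd1 probe sets, the 5 genes nearest to Srxn1 and to Sesn3 by mean absolute log2 distance, and listed partner genes and Nrf2 targets with an unadjusted p of at most 0.05; Sesn1, Sesn2, Txn1, Cat, and the Nrf2 targets above that p, were added after their values were seen.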

Additional observations from a re-analysis of the deposited data

Results flagged for a closer look

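Of 48 groups of 4 livers examined, 3 had a liver far from the others, where chance gives about 1 in 20. Prdx4 probe set 1416167_at was 1.17 in control animal 70 and 0.976 to 0.989 in the other control livers, a gap of 0.926 of the group's range. Prdx3, read by 1 probe set (1416292_at), was 0.873 in deficient animal 81 and 1.07 to 1.09 in the other deficient livers, a gap of 0.928 of the range. The gene value and the probe set value of Prdx3 are the same measurement, counted as 2 of the 3.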

How the results depend on the processing

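The gene counts (0 called, 1 past the thresholds of the methods) and the 3 probe sets past those thresholds did not change in the 17 alternatives fitted. Probe sets called, counted over the alternatives after seeing the data, were 0 in all of them but 1. They were 3 with the least variable probe sets left out, a filter whose SD includes the genotype difference, so that fit is not separate support. Srxn1 stayed higher in each, with limma's adjusted p from 0.055 (least variable probe sets left out) to 1.00. The fit at 0.055 dropped Srxn1 probe set 1419942_at, whose groups overlapped, and the Srxn1 log2 difference in that fit was 1.36. Over all genes the count of calls was 15 and, in fits of all 8 livers, ran from 1 (each gene alone) to 21 (least variable left out). The Srxn1 minus Prdx1 difference was 1.09 with the median of probe sets (exact permutation p of 0.029). Leaving out 1 animal gave 0.81 (without 81) to 1.24 for Srxn1, 0.77 to 1.17 for Srxn1 minus Prdx1 (without 72, exact permutation p of 0.029), -0.0069 (without 80) to 0.19 for Prdx1, 0.05 to 0.18 for Prdx2, 0.05 to 0.20 for Prdx3, 0.06 to 0.25 for Prdx4 and -0.12 to 0.24 for Sesn3 (below 0 without 82 or 69), all log2. With the range of animal numbers as a covariate Sesn3 was -0.0085. Within animals 69 to 73, Prdx1 was -0.0096 and Sesn3 -0.23. Within animals 80 to 82, which hold 1 deficient liver, the values were 0.35 for Prdx1, -0.15 for Prdx2, -0.016 for Prdx3, 0.38 for Prdx4, 1.80 for Srxn1, 0.40 for Sesn3 and 1.45 for Srxn1 minus Prdx1. The cause was not tested. The side of the hybridization controls was chosen after seeing the data. Prdx3 had no value under the SD filter, and averaging in shared probe sets gave no other value. No paired analysis was possible because the groups share no animal number.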
